A study of Mus musculus with 24 samples.

Results

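The genes described here are 48 collagens, matrix glycoproteins and collagen-processing enzymes, chosen by gene symbol and followed through every diet and enema group. The platform annotation gives 46 of them a probe set with 1 gene symbol, and 44 were bright enough to be tested, out of 12911 tested genes. Fbn1 and Loxl2 were not analysed here. Nid2 and Lama4 fell below the filter on low signal. Nid2 ran from 95.2 to 211.3 and the 2 Lama4 probe sets from 24.8 to 400.2 over the 12 samples.

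The tissue was whole colon of BALB/c mice, an inbred laboratory strain, aged 6 to 8 weeks. In 4 groups of 3 numbered samples, mice received a curcumin diet and a TNBS enema, a curcumin diet and a control enema, a standard diet and a TNBS enema, or a standard diet and a control enema. The curcumin diet held 2% curcumin, the yellow polyphenol of turmeric. TNBS is trinitrobenzene sulfonic acid, a hapten that inflames the colon when given as an enema. Diets began 2 days before the enema, and colons were removed at day 7, counting the enema as day 0. The text that comes with the samples mentions wild-type littermates, but the labels name no mutant allele. Each RNA pool came from 3 mice, and it is not stated if the numbered samples within a group are independent pools. The p-values below therefore measure the spread between these samples, which may be technical. Each sample was hybridised to an Affymetrix 430A and a 430B array, and values are linear signals scaled by the authors. Log2 differences are of log2(signal + 16) and are given ± SE from limma.

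The extracellular matrix is the protein scaffold around cells, laid down in the gut wall mainly by fibroblasts and smooth muscle. Fibrillar collagens give it tensile strength, basement membrane collagens and laminins carry epithelium and vessels, and elastic fibres give recoil. Matricellular proteins bind this scaffold and alter how cells attach to it without adding to its strength. After injury, tissue commonly deposits a provisional matrix of fibronectin and matricellular proteins, and collagen follows, cross-linked by lysyl oxidases.

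The 430A arrays fell into 2 sets of 6 on their first principal component, which carried 32.0% of the variance and followed neither diet nor enema alone. The ratio of 3′ to 5′ actin signal ran from 1.04 to 1.12 in set 1 and from 1.14 to 1.24 in set 2. Median signals ran from 226.7 to 253.9 and from 271.15 to 283.95, while the Gapdh ratios of the sets overlapped. The origin of the sets was not tested. Standard-diet TNBS samples and curcumin-diet controls each had 2 arrays in set 1 and 1 in set 2. Standard-diet controls and curcumin-diet TNBS samples each had 1 in set 1 and 2 in set 2. The sets were thus divided unequally in every comparison of TNBS with control on one diet, or of the diets under one enema. The imbalance also ran along the interaction of diet and enema. Differences from group means alone are therefore partly mixed with the array set. Results are given from a fit with group means alone and, where the call differs, from another fit that adds a term for the 2 array sets, called the array-set fit. Colon epithelium markers, 12 of 12 measured, summed to between 122031 and 177876 in every sample. Muc2 was a large part of each sum and alone ran from 48926.5 to 102646. Only Aqp8 was separated between TNBS and control on the standard diet, at 2459 to 2692.9 against 3314.2 to 4375. It was picked out after its values were seen. Summed pancreas acinar markers (9 of 12 measured) ran from 2549 to 122406 over the samples, and the groups overlapped. In bulk tissue, fewer cells of a type and less RNA per cell cannot be told apart.

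With TNBS on the standard diet, most matrix genes stood higher than in controls. The median log2 difference of the 44 genes was 0.33, against -0.01 for all tested genes, and 37 of the 44 were positive. In 22 of the 44, all 3 TNBS samples lay above all 3 controls, where 7.67% of all genes did, and in 3 they lay below, where 7.3% did. Across all probe sets of the array, however, 0 of the 44 passed an adjusted p of 0.05 in limma with group means alone, in either direction (background 0.0155% higher and 0% lower). At an unadjusted p under 0.05, 21 were higher and 2 lower (3.94% and 4.45% of all genes). In the array-set fit, Col12a1 and Sparc rose and Sparcl1 fell (background 0.17% higher and 0.132% lower).

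Markers of other cells also differed between groups. Summed neutrophil markers (9 of 10 measured) were 791.5 to 1779.8 in curcumin-diet TNBS samples and 1245 to 1772 in curcumin-diet controls, while they were 7220.5 to 13895 in standard-diet TNBS samples and 1027 to 1260.5 in standard-diet controls. Summed macrophage markers (10 of 10) were 8989 to 10399 in curcumin-diet TNBS samples and 8560.5 to 10057 in curcumin-diet controls, while they were 11628 to 13745 in standard-diet TNBS samples and 8117 to 9544 in standard-diet controls. Both sums were thus highest in the group where most matrix genes stood higher. Lcn2, S100a8 and S100a9 gave most of the neutrophil sums in standard-diet TNBS samples, Lcn2 alone 6003, 2957 and 5714. Ngp, Ltf, Mmp8 and Csf3r also lay above standard-diet controls, while Camp and Cxcr2 overlapped them. Among the macrophage markers, Csf1r, Cd14, Lyz2, Mrc1 and C1qb in standard-diet TNBS samples lay above standard-diet controls. Cd68, Adgre1, Itgam, C1qa and Msr1 overlapped those controls. Lyz2 and Csf1r were the brightest of the list. Adipocyte markers (7 of 9) summed to 4823 to 10813 in standard-diet TNBS samples, below the 11338 to 12469 of standard-diet controls. The summed fibroblast markers (10 of 10) overlapped, at 8247 to 9569 in standard-diet TNBS samples and 7237 to 8287 in standard-diet controls. Of these 10, Thy1 lay above controls without overlap (455.7 to 626.6 with TNBS, 326.6 to 421.4 in controls) and Dpt below (1115 to 1757 with TNBS, 1916 to 1963 in controls), and the other 8 overlapped. The summed smooth muscle markers (10 of 10) overlapped too, at 32824 to 40979 in standard-diet TNBS samples and 38617 to 43553 in standard-diet controls. Of these, Myh11 and Myl9 lay below controls without overlap and the other 8 overlapped. The Myh11 margin was very narrow, with a highest TNBS signal of 3108.2 and a lowest control signal of 3108.9. For Myl9 these were 4086.4 and 4540. The genes named in this paragraph were picked out after their values were seen. The part of these cells in the matrix signals was not tested.

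On the curcumin diet, the 44 genes in TNBS samples lay close to controls. Their median was 0.03, against -0.01 for all genes, with 22 positive and 22 negative. TNBS samples lay above controls in 3 genes (5.62% of all genes) and below in 1 (6.41%). In limma 0 passed (background 0.0232% higher and 0.101% lower), and at an unadjusted p 1 was higher and 0 lower (4.43% and 6.4%). Between the TNBS groups, curcumin samples lay below standard-diet samples in 21 genes (10.3% of all genes) and above in 2 (9.46%), with a median of -0.27. Here too 0 passed in limma, in either fit (background 0.116% higher and 0.55% lower with group means alone, 0.0852% and 0.0775% in the array-set fit), while 2 were higher and 17 lower at an unadjusted p (6.75% and 8.74%). The shares pool both array types, while the 44 genes were all read from 430A. Between the TNBS groups, 4 of 13575 probe sets passed on 430A with group means alone and 214 of 13506 on 430B. On 430B 3 passed without its 2 outlying arrays. The comparison between the TNBS groups and that of TNBS with control on the standard diet share the standard-diet TNBS samples. Their values are therefore set side by side and not counted as separate support.

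**Figure D1:**
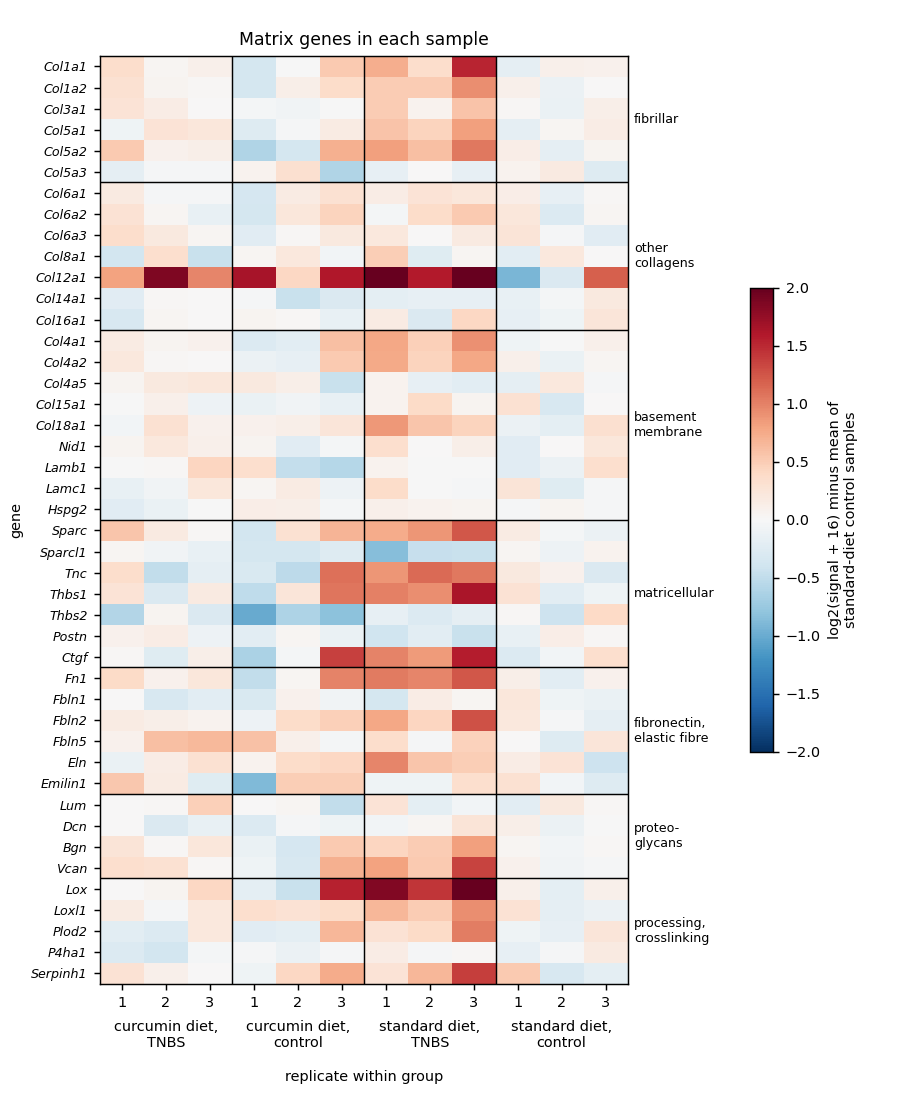
Each row is 1 of the 44 tested genes and each column 1 sample, with colour for log2(signal + 16) minus the mean of the 3 standard-diet controls; classes are separated by lines. Red fills much of the standard-diet TNBS columns, while replicate 3 of the curcumin-diet controls is also red for genes such as Lox and Tnc.

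The plot of every gene in every sample also showed 1 curcumin-diet control apart from the other two. Replicate 3 of that group was highest of its group for 25 of the 44 genes and exceeded both others by more than 1.5-fold for 11: Lox, Tnc, Ctgf, Col5a2, Fn1, Plod2, Thbs1, Vcan, Col4a1, Bgn and Col4a2. In the other 11 samples such genes numbered 0 to 4. Its signal for Lcn2, an antibacterial lipocalin of inflamed epithelium and neutrophils, was 710.1, against 82.1 and 101.1 in its group. Its acinar marker sum was 55472, against 2549 and 2727, and its adipocyte marker sum 8338, against 11692 and 13374. The part of these in its matrix signals was not tested. Replicate 3 belongs to neither group of the next comparisons. Leaving it out keeps their log2 differences from group means alone and changes only the estimate of spread that all groups share. It was singled out because it stood high in these same genes, so the calls made without it are not separate support. Without this sample, limma called 3 genes higher in TNBS on the standard diet (Fn1, Col4a1 and Lox, background 0.287%) and 0 lower (0.062%) and, in curcumin against standard-diet TNBS samples, 3 lower (Fn1, Tnc and Lox, background 0.929%) and 0 higher (0.217%). In the array-set fit without it, 14 were higher (background 0.829%) and Sparcl1 lower (0.705%) with TNBS on the standard diet. With curcumin against standard diet under TNBS, 8 were then lower (0.658%) and Sparcl1 higher (0.713%). Without standard-diet TNBS replicate 2, the array-set fit called 7 higher (0.356%) and Sparcl1 lower (0.511%) on the standard diet, and Sparcl1 higher (0.441%) and Fbln2 lower (0.24%) on curcumin between the TNBS groups. Weighting each array by its quality gave more calls: 10 higher (0.658%) and 1 lower (0.356%) on the standard diet, 2 higher (6.78%) and 19 lower (9.16%) on curcumin between the TNBS groups, and 1 higher (3.21%) and 9 lower (5.22%) for the interaction of diet and enema.

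The 4 promoter windows below are shown because they belong to 2 genes with neighbouring, oppositely transcribed starts (Col4a1 and Col4a2), a major fibrillar collagen chain (Col1a2) and a matricellular gene that passed the test in the array-set fit (Sparc). They are RefSeq sequences of build GRCm38.p6, 250 bases before to 50 after the annotated start, read 5′ to 3′ along the gene. Capitals mark CAGACA, a Smad-binding motif, and CCAAT, the CCAAT box, on either strand. Col1a2 lies at chr6:4505368-4505667, plus strand, Col4a1 at chr8:11312777-11313076, minus strand, Col4a2 at chr8:11312555-11312854, plus strand and Sparc at chr11:55420031-55420330, minus strand.
Col1a2: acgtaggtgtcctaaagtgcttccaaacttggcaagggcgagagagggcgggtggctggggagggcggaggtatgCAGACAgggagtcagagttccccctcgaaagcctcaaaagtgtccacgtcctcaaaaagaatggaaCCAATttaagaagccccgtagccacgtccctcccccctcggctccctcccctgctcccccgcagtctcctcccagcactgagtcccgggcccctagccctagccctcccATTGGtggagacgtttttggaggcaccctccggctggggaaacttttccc
Col4a1: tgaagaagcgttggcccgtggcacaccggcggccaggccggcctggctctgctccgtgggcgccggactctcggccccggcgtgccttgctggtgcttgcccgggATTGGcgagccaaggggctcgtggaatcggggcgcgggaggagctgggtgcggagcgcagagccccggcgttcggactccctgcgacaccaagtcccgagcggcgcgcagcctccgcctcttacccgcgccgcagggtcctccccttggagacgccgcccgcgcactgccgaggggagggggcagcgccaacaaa
Col4a2: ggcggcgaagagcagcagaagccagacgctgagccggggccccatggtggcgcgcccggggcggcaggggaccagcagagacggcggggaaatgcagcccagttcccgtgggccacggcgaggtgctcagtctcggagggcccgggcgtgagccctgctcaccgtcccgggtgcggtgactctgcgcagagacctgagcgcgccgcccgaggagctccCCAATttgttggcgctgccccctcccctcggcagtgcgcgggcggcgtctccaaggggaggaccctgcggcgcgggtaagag
Sparc: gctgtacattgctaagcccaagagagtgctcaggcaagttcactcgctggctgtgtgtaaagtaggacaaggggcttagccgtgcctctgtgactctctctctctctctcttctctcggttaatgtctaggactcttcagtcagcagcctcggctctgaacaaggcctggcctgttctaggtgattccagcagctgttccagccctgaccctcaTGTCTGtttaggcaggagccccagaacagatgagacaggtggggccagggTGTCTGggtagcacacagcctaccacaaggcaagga
The Col4a1 and Col4a2 windows share 78 bases on opposite strands and each held 1 CCAAT box. RefSeq windows matched 29 of the tested genes, with 35 windows in all. CAGACA occurred in 14 of the 35 (40%), against 21% of all 32851 windows, and CCAAT in 14 (40%), against 37.4%. TATAAA, the TATA box, occurred in 6 (17.1%), against 13.6%, and TGANTCA, the AP-1 site, in 1 (2.86%), against 7.81%. Both strands were searched, no motif overlapped another in the windows shown, and the counts describe letters in these windows only.

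Fibrillar collagens had a median log2 difference of 0.63 with TNBS on the standard diet and 0.14 on the curcumin diet. TNBS samples lay above controls for 4 of the 6 on the standard diet and for 1 of 6 on curcumin. None of the 6 passed the test in limma in either fit, while 5 had an unadjusted p under 0.05 on the standard diet.

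Col1a1 had signals of 2188, 1755 and 1834 in curcumin-diet TNBS samples and 1335, 1696 and 2469 in curcumin-diet controls. Col1a1, the major chain of type I collagen, reached 2841, 2202 and 4951 in standard-diet TNBS samples, against 1510.1, 1830.1 and 1819 in standard-diet controls. All 3 standard-diet TNBS samples were above every standard-diet control, and replicate 3 of the TNBS samples was far above the other two. The log2 difference was 0.87 ± 0.27 (adjusted p = 0.290), and 1.12 and 0.63 within array sets 1 and 2. It was 0.54 without standard-diet TNBS replicate 3 and 1.12 without replicate 2. Between the TNBS groups, with all samples, it was -0.71 ± 0.27 (adjusted p = 0.379), with no overlap.

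Col1a2 encodes the second chain of type I collagen. Col1a2 had signals of 5912, 4975 and 4879 in curcumin-diet TNBS samples and 3749.6, 5214 and 6204 in curcumin-diet controls. Col1a2 reached 6819, 6801 and 9144 in standard-diet TNBS samples, against 5167, 4422 and 4811 in standard-diet controls. Standard-diet TNBS samples were above all others, and curcumin-diet TNBS samples lay among their controls. TNBS minus control was 0.65 ± 0.18 on the standard diet (adjusted p = 0.203; 0.54 ± 0.13 and adjusted p = 0.0885 in the array-set fit). Another Col1a2 probe set had 1.25 for the same difference (adjusted p = 0.161).

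Col3a1, the type III chain of young and distensible tissue, differed less on the standard diet than the type I chains did. Col3a1 gave 8159, 7464 and 6818 in curcumin-diet TNBS samples and 6612, 6455 and 6701 in curcumin-diet controls. Col3a1 reached 9652, 7113 and 10007 in standard-diet TNBS samples, against 6864, 6151 and 7329.7 in standard-diet controls. Replicate 2 of the standard-diet TNBS samples lay below the highest control, so those groups overlapped. On curcumin every TNBS sample was above every control, by 0.18 ± 0.13 (adjusted p = 1.00), against 0.38 ± 0.13 on the standard diet (adjusted p = 0.357).

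Col5a1 encodes a type V chain, which seeds fibrils and limits their width. Col5a1 had signals of 953, 1224 and 1188 in curcumin-diet TNBS samples and 844, 988 and 1129 in curcumin-diet controls. Col5a1 reached 1501, 1379.9 and 1796 in standard-diet TNBS samples, against 893, 1032 and 1115 in standard-diet controls. Every standard-diet TNBS sample was above the other 9 samples. Its TNBS difference was 0.61 ± 0.16 on the standard diet (adjusted p = 0.182) and 0.18 ± 0.16 on curcumin (adjusted p = 1.00). Col5a2, its partner chain, had 0.82 ± 0.28 and 0.33 ± 0.28, while Col5a3 had -0.11 ± 0.21 and -0.01 ± 0.21 with overlapping groups.

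Among the microfibrillar, network and fibril-associated collagens, the median on the standard diet was 0.14, and 2 of 7 lay above controls and 1 below. Col12a1, a fibril-associated collagen of stressed and wounded tissue, was the only one of them to pass a test. Col12a1 had signals of 149, 332 and 172 in curcumin-diet TNBS samples and 280.2, 111 and 271 in curcumin-diet controls. Col12a1 reached 406, 269 and 434 in standard-diet TNBS samples, against 34.5, 62.1 and 201 in standard-diet controls. The standard-diet groups did not overlap, but control replicate 3 was more than 3 times as bright as the other controls, and the curcumin-diet groups overlapped. Standard-diet control replicates 1 and 2, at 34.5 and 62.1, lay far below the median signals of their arrays, 246.5 and 275.9. Curcumin-diet controls stood 1.22 above standard-diet controls, with overlap, and this difference did not pass in limma. The part of the low controls in the TNBS difference was not tested. In the array-set fit Col12a1 rose by 2.23 ± 0.43 (adjusted p = 0.0485), and by 2.83 and 1.70 within the sets, against 2.00 ± 0.51 (adjusted p = 0.180) with group means alone. A brighter 430B probe set had 0.87 (adjusted p = 0.846), so the 2 probe sets differ in size. With 1 sample left out, the array-set fit called Col12a1 in 2 of 12 runs, and its adjusted p ran from 0.0181 to 0.301.

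Type VI collagen forms beaded microfibrils beside cells, and its chains differed little between groups. Col6a1 gave 2561, 2212 and 2223 in curcumin-diet TNBS samples and 1783, 2523 and 2799 in curcumin-diet controls. Col6a1 reached 2495, 2737 and 2652 in standard-diet TNBS samples, against 2476, 2013 and 2293 in standard-diet controls. The lowest TNBS sample on the standard diet lay just above the highest control. Col6a1 differed there by 0.22 ± 0.16 (adjusted p = 0.744). It was 0.14 without standard-diet control replicate 2 and 0.13 in the array-set fit.

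Col6a2 had signals of 2817, 2375 and 2068 in curcumin-diet TNBS samples and 1802, 2704 and 3156 in curcumin-diet controls. Col6a2 reached 2234, 2981 and 3309.9 in standard-diet TNBS samples, against 2689, 1909 and 2372 in standard-diet controls. All Col6a2 groups overlapped, and the standard-diet difference was 0.28 ± 0.22 (adjusted p = 0.762). That difference ran from 0.15 without standard-diet control replicate 2 to 0.45 without standard-diet TNBS replicate 1, and was 0.13 in the array-set fit. Col6a3 (0.14 ± 0.15), Col8a1 (0.09 ± 0.24) and Col16a1 (0.10 ± 0.19) overlapped as well. A brighter 430B probe set of Col8a1 had 0.68 on the standard diet (adjusted p = 0.823), so its probe sets differ in size. Col14a1, a fibril-associated collagen, was the one that lay below controls, by -0.17 ± 0.15 (adjusted p = 0.785).

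**Figure D2:**
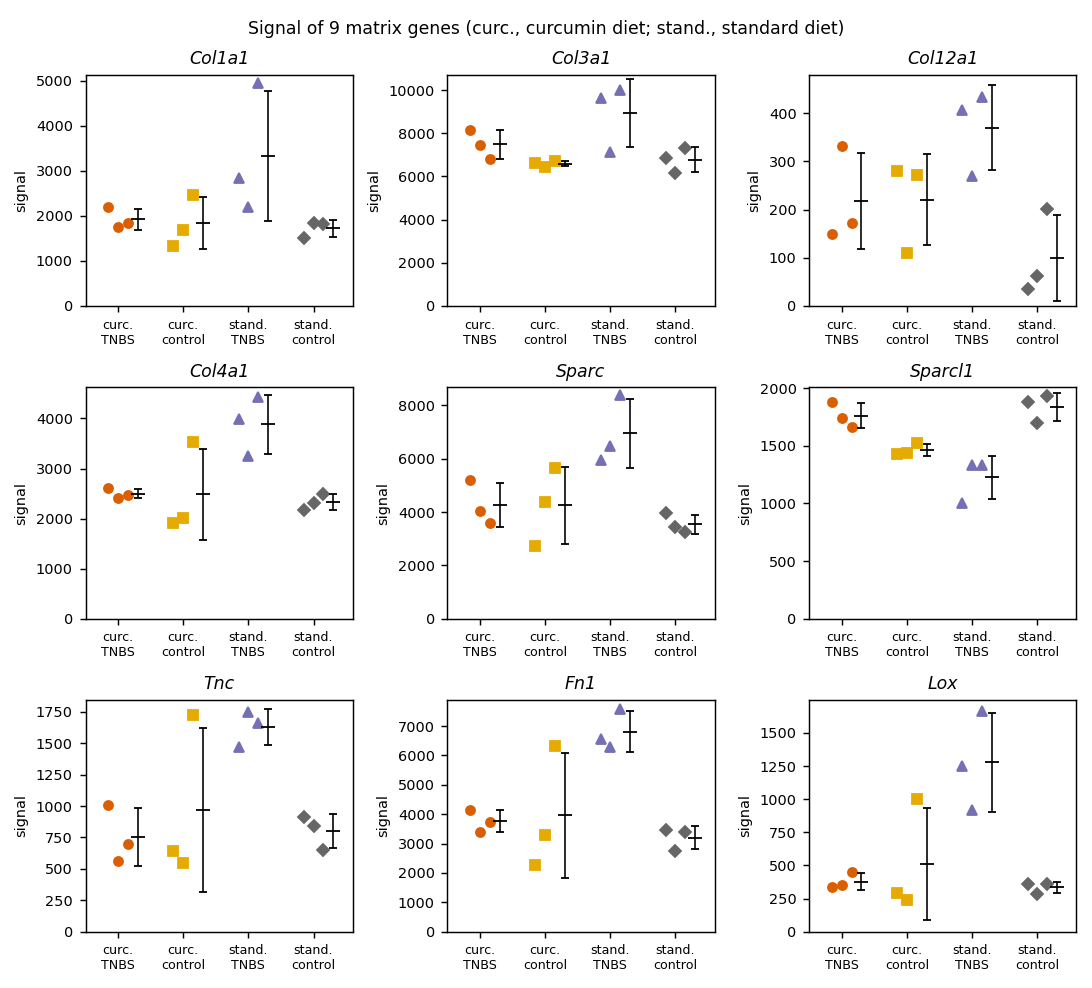
Points are the linear signal of each sample for 9 genes, and the black dash with bars beside them is the mean ± SD of the 3 samples. Standard-diet TNBS samples stand above standard-diet controls in every panel except Col3a1, where they overlap, and Sparcl1, where they stand below.

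Basement membrane genes differed by chain. The type IV pair and Col18a1 stood higher with TNBS on the standard diet, and laminins and nidogen overlapped; the class median was 0.15, with 4 of 9 above controls and 0 below. On curcumin the class median was 0.06, and all 9 overlapped.

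Col4a1 and Col4a2 encode the chains of the main type IV network, and their promoter windows are those printed above. Col4a1 had signals of 2602, 2419.5 and 2470.3 in curcumin-diet TNBS samples and 1920, 2012 and 3538 in curcumin-diet controls. Col4a1 reached 3983, 3245 and 4419.5 in standard-diet TNBS samples, against 2182, 2316 and 2490.2 in standard-diet controls. The standard-diet TNBS signals exceeded all standard-diet controls and all curcumin-diet TNBS samples, while control replicate 3 on curcumin, at 3538, lay among them. Col4a1 differed by 0.72 ± 0.20 on the standard diet (adjusted p = 0.210) and by -0.62 ± 0.20 between curcumin and standard-diet TNBS samples (adjusted p = 0.292).

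Col4a2 had signals of 1456, 1289 and 1272 in curcumin-diet TNBS samples and 1157, 1126 and 1831 in curcumin-diet controls. Col4a2 reached 2148, 1718 and 2169.9 in standard-diet TNBS samples, against 1349, 1152 and 1294 in standard-diet controls. The order of the samples was much as for Col4a1, with the same curcumin-diet control high. Col4a2 differed by 0.66 ± 0.18 on the standard diet (adjusted p = 0.197), and by less than its SE of 0.18 on curcumin (adjusted p = 1.00).

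Col18a1, the source of the endothelial inhibitor endostatin, was likewise separated on the standard diet. Col18a1 gave 533, 687 and 586 in curcumin-diet TNBS samples and 588, 599 and 661 in curcumin-diet controls. Col18a1 reached 1022, 819 and 761 in standard-diet TNBS samples, against 507, 483 and 694 in standard-diet controls. Each standard-diet TNBS sample was above every other sample. Its difference was 0.62 ± 0.17 (adjusted p = 0.198; 0.68 ± 0.15 and adjusted p = 0.0759 in the array-set fit).

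The laminin chains Lamb1 (0.02 ± 0.24) and Lamc1 (0.11 ± 0.17) and the laminin-binding linker Nid1 (0.15 ± 0.15) overlapped between TNBS and control on the standard diet. Col4a5 (-0.10 ± 0.18) and Col15a1 (0.17 ± 0.17) did too. Another 430A probe set of Col4a5 had -0.66 for the same difference (adjusted p = 0.291). Hspg2, the heparan sulfate proteoglycan perlecan, was separated by a small margin, 0.07 ± 0.10 (adjusted p = 0.896).

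Matricellular genes ran from -0.59 for Sparcl1 to 1.19 for Thbs1 in their log2 differences with TNBS on the standard diet. Their class median there was 0.96, with 4 of 7 above controls and 2 below, and 0.05 on curcumin, with 2 of 7 above controls. Between the TNBS groups 4 were lower and 2 higher on curcumin, without overlap.

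Sparc encodes a collagen-binding glycoprotein made by matrix-producing cells. Sparc had signals of 5199, 4022 and 3597 in curcumin-diet TNBS samples and 2738, 4366 and 5636 in curcumin-diet controls. Sparc reached 5949, 6490.4 and 8386 in standard-diet TNBS samples, against 3946, 3445 and 3239 in standard-diet controls. Standard-diet TNBS samples were the 3 highest of all 12, and both curcumin groups ran across one another. In the array-set fit Sparc rose by 0.80 ± 0.15 (adjusted p = 0.0485), with 0.90 and 0.83 in array sets 1 and 2, against 0.96 ± 0.23 (adjusted p = 0.159) with group means alone. Another 430A probe set had 1.00 (adjusted p = 0.138), and a 430B probe set 0.16 (adjusted p = 0.999). With 1 sample left out, the array-set fit called Sparc in 3 of 12 runs.

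Sparcl1, its relative also called hevin, was lower with TNBS on the standard diet. Sparcl1 had signals of 1876, 1745 and 1662 in curcumin-diet TNBS samples and 1428, 1441 and 1528 in curcumin-diet controls. Sparcl1 had 1008, 1333 and 1337 in standard-diet TNBS samples, against 1883, 1701 and 1929.8 in standard-diet controls. TNBS samples were all below controls on the standard diet and all above controls on curcumin, and curcumin-diet controls were all below standard-diet controls. On the standard diet Sparcl1 fell in the array-set fit, with a difference of -0.64 ± 0.11 (adjusted p = 0.0457), against -0.59 ± 0.13 (adjusted p = 0.132) with group means alone. On curcumin TNBS minus control was 0.26 ± 0.13 (adjusted p = 1.00), and the controls differed by -0.32 ± 0.13 between diets (adjusted p = 0.998). The interaction, the curcumin-diet TNBS effect minus the standard-diet one, was 0.85 ± 0.18 and did not pass (adjusted p = 0.221; adjusted p = 0.0949 in the array-set fit). Sparcl1 was called on the standard diet in 3 of 12 array-set runs with 1 sample left out, and its difference was negative in all 12.

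Tnc encodes tenascin C, which is laid down around wounds. Tnc had signals of 1012, 560.1 and 695 in curcumin-diet TNBS samples and 639.7, 546 and 1721 in curcumin-diet controls. Tnc reached 1469, 1748 and 1662 in standard-diet TNBS samples, against 910, 843 and 647 in standard-diet controls. Standard-diet TNBS samples were above curcumin-diet TNBS samples and standard-diet controls, and curcumin control replicate 3, at 1721, was as high as they were. Tnc differed by 1.02 ± 0.35 on the standard diet (adjusted p = 0.350) and by -1.13 ± 0.35 between the TNBS groups (adjusted p = 0.275).

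Thbs1, thrombospondin 1, binds matrix and can activate latent TGF-beta. Thbs1 had signals of 548, 369 and 518 in curcumin-diet TNBS samples and 313, 538 and 972 in curcumin-diet controls. Thbs1 reached 922, 876 and 1440 in standard-diet TNBS samples, against 557, 391 and 427 in standard-diet controls. Curcumin-diet TNBS samples were all below standard-diet TNBS samples, of which replicate 3 was highest. Its difference was 1.19 ± 0.33 on the standard diet (adjusted p = 0.225) and -1.13 ± 0.33 between the TNBS groups (adjusted p = 0.244).

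Thbs2 encodes thrombospondin 2, an antiangiogenic relative of Thbs1. Thbs2 had signals of 206, 330.2 and 257 in curcumin-diet TNBS samples and 150.1, 200.4 and 172 in curcumin-diet controls. Thbs2 had 280.5, 259 and 279 in standard-diet TNBS samples, against 321, 233 and 424 in standard-diet controls. Curcumin-diet controls were below every other sample, and the standard-diet groups overlapped. Thbs2 was -0.81 ± 0.23 between curcumin and standard-diet controls (adjusted p = 0.998) and 0.54 ± 0.23 between TNBS and control on curcumin (adjusted p = 1.00). Another 430A Thbs2 probe set had mean signals of 188.9 in curcumin-diet controls, 193.2 in standard-diet controls and 161.4 in curcumin-diet TNBS samples. A 430B probe set had 195.7, 165.1 and 261.3 for these groups, so the differences varied in size and sign between probe sets. Among controls Thbs2 was, with Sparcl1, 1 of 2 genes of the 44 below without overlap and 0 were above (4.05% and 3.79% of all genes). No gene of the 44 passed in that comparison in limma (background 0% in both directions), while 1 was higher and 2 lower at an unadjusted p (1.7% and 1.88%).

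Ctgf, a connective tissue growth factor also called Ccn2, differed by 1.14 ± 0.39 on the standard diet (adjusted p = 0.349) and -1.17 ± 0.39 between the TNBS groups. Postn, the matricellular protein periostin, lay below controls by -0.35 ± 0.12 with TNBS on the standard diet (adjusted p = 0.364), and above standard-diet TNBS samples by 0.39 ± 0.12 with TNBS on curcumin (adjusted p = 0.280). Periostin and tenascin C, both matricellular, therefore differed in sign.

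**Figure D3:**
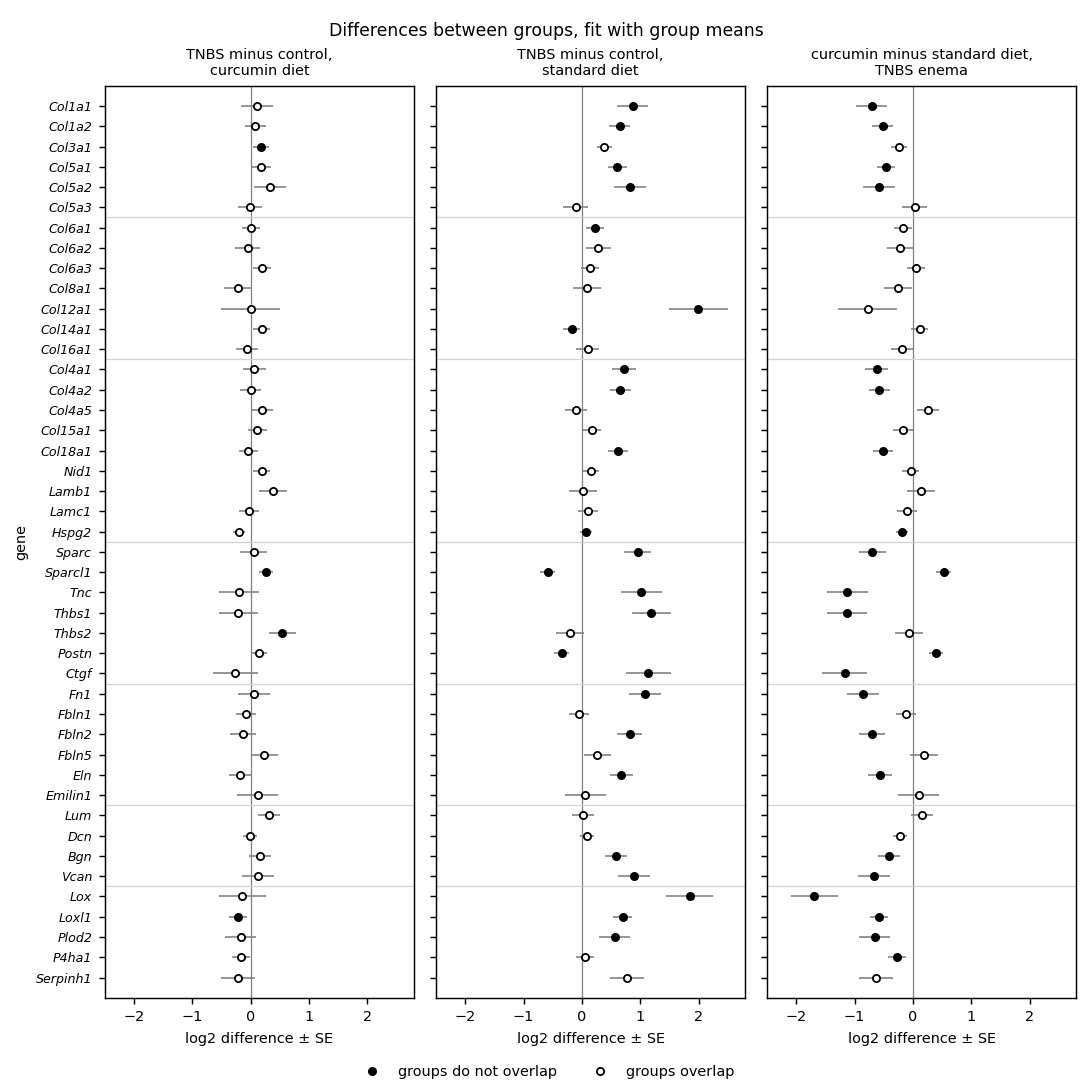
Log2 differences ± SE are drawn for the 44 genes in 3 comparisons, with filled points where the 3 samples of one group do not overlap the 3 of the other. Filled points right of 0 are 22 for TNBS on the standard diet and 3 on curcumin, and filled points left of 0 are 21 for curcumin against standard diet under TNBS.

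Of the fibronectin and elastic fibre genes, 3 of 6 lay above controls with TNBS on the standard diet and the class median was 0.47; on curcumin it was -0.01, with 0 of 6 separated. Fn1 encodes fibronectin, the main glycoprotein of provisional matrix. Fn1 had signals of 4139.6, 3387 and 3745 in curcumin-diet TNBS samples and 2262, 3275 and 6335 in curcumin-diet controls. Fn1 reached 6548, 6290.1 and 7590.5 in standard-diet TNBS samples, against 3473, 2745 and 3392 in standard-diet controls. Curcumin control replicate 3 was close to the standard-diet TNBS samples, and the other 8 samples lay well below both. The log2 difference was 1.09 ± 0.27 on the standard diet (adjusted p = 0.175), and leaving out 1 sample at a time gave adjusted p = 0.0141 (that control left out) to 0.499.

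Fbln2 gave 397, 385 and 370.2 in curcumin-diet TNBS samples and 328, 460.3 and 498 in curcumin-diet controls. Fbln2, a fibulin that links elastic fibres and basement membrane, reached 612, 479 and 876 in standard-diet TNBS samples, against 412, 346 and 309.9 in standard-diet controls. Its standard-diet TNBS samples were above all controls and above all curcumin-diet TNBS samples, though replicate 2 lay below the highest curcumin-diet control. Fbln2 differed by 0.82 ± 0.22 on the standard diet (adjusted p = 0.193) and by -0.70 ± 0.22 between the TNBS groups (adjusted p = 0.271).

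Eln encodes elastin itself. Eln had signals of 659, 802 and 899 in curcumin-diet TNBS samples and 763, 934 and 969 in curcumin-diet controls. Eln reached 1436, 1075 and 1027 in standard-diet TNBS samples, against 799.9, 878 and 538 in standard-diet controls. All 3 standard-diet TNBS samples were above the other 9. The difference was 0.68 ± 0.20 on the standard diet (adjusted p = 0.265) and -0.18 ± 0.20 on curcumin (adjusted p = 1.00). Fbln1 (-0.05 ± 0.17), Fbln5 (0.26 ± 0.24) and Emilin1 (0.06 ± 0.35) overlapped on the standard diet.

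The 4 proteoglycans were split, with a class median of 0.33 on the standard diet and 2 of 4 above controls. Vcan encodes versican, a large hyaluronan-binding proteoglycan of provisional matrix. Vcan had signals of 282, 275 and 223 in curcumin-diet TNBS samples and 206, 172 and 369.8 in curcumin-diet controls. Vcan reached 397, 322 and 585 in standard-diet TNBS samples, against 234, 209 and 215 in standard-diet controls. Standard-diet TNBS samples lay above controls and above curcumin-diet TNBS samples. Its difference was 0.90 ± 0.27 (adjusted p = 0.278).

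Bgn and Dcn encode biglycan and decorin, related small proteoglycans that bind collagen fibrils and TGF-beta. Bgn had signals of 2545, 2157 and 2483 in curcumin-diet TNBS samples and 1924, 1674 and 3050.1 in curcumin-diet controls. Bgn reached 2841, 3008 and 3732 in standard-diet TNBS samples, against 2173, 2031 and 2145 in standard-diet controls. Biglycan was higher in each standard-diet TNBS sample than in each control, by 0.58 ± 0.19 (adjusted p = 0.319), and other Bgn probe sets had 1.06 and 0.95.

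Dcn had signals of 5300.2, 4325 and 4754 in curcumin-diet TNBS samples and 4349, 5185 and 4946 in curcumin-diet controls. Dcn reached 5102, 5398 and 6321 in standard-diet TNBS samples, against 5741, 4881 and 5246 in standard-diet controls. Decorin groups overlapped on both diets. Its difference was 0.08 ± 0.12 on the standard diet (adjusted p = 0.897), and its sign turned when standard-diet TNBS replicate 3 was left out. Lum, lumican, also overlapped (0.01 ± 0.19).

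Genes that process and cross-link collagen had a class median of 0.70 with TNBS on the standard diet, with 3 of 5 above controls, and -0.17 on curcumin, with all 5 differences negative. Under TNBS, 4 of 5 were lower on curcumin than on the standard diet without overlap. Lox encodes lysyl oxidase, which starts the covalent cross-links of collagen and elastin. Lox had signals of 335, 349 and 449.5 in curcumin-diet TNBS samples and 289.9, 242 and 1000.1 in curcumin-diet controls. Lox reached 1252, 921 and 1667 in standard-diet TNBS samples, against 359.9, 288 and 358 in standard-diet controls. Lox signals in standard-diet TNBS samples were above those of all standard-diet controls and curcumin-diet TNBS samples, and 1 curcumin-diet control, replicate 3, lay among them. The difference was 1.85 ± 0.41 on the standard diet (adjusted p = 0.132; 1.74 and 1.91 within the sets) and -1.69 ± 0.41 between the TNBS groups (adjusted p = 0.165). With 1 sample left out, adjusted p ran from 0.00514 to 0.421 and from 0.00699 to 0.545 for these, lowest without that control. Another Lox probe set had 1.59 and -0.78.

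Loxl1, a lysyl oxidase relative needed for elastic fibre upkeep, was opposed between the diets. Loxl1 had signals of 546, 478 and 560.3 in curcumin-diet TNBS samples and 618, 597 and 629 in curcumin-diet controls. Loxl1 reached 774, 693 and 939.8 in standard-diet TNBS samples, against 597, 428 and 444 in standard-diet controls. TNBS samples were all above controls on the standard diet and all below controls on curcumin. These differences were 0.70 ± 0.16 (adjusted p = 0.137) and -0.22 ± 0.16 (adjusted p = 1.00), and the interaction was -0.91 ± 0.22 (adjusted p = 0.239). Such opposite, non-overlapping pairs occurred in 2 of the 44 genes and in 243 of 12911 (1.88%).

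Serpinh1 encodes HSP47, the collagen chaperone of the endoplasmic reticulum. Serpinh1 had signals of 1153, 1012 and 939 in curcumin-diet TNBS samples and 882, 1259 and 1572 in curcumin-diet controls. Serpinh1 reached 1136, 1491 and 2478 in standard-diet TNBS samples, against 1351, 745 and 818 in standard-diet controls. All its groups overlapped, since standard-diet control replicate 1 was above TNBS replicate 1. The difference was 0.77 ± 0.29 (adjusted p = 0.419), and another Serpinh1 probe set had 0.25. The difference of 0.77 became 0.47 without standard-diet TNBS replicate 3 and 1.03 without standard-diet control replicate 1. Plod2, a lysyl hydroxylase of collagen, differed by 0.56 ± 0.26 without overlap, and P4ha1, a prolyl hydroxylase subunit, by 0.05 ± 0.15.

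**Figure D4:**
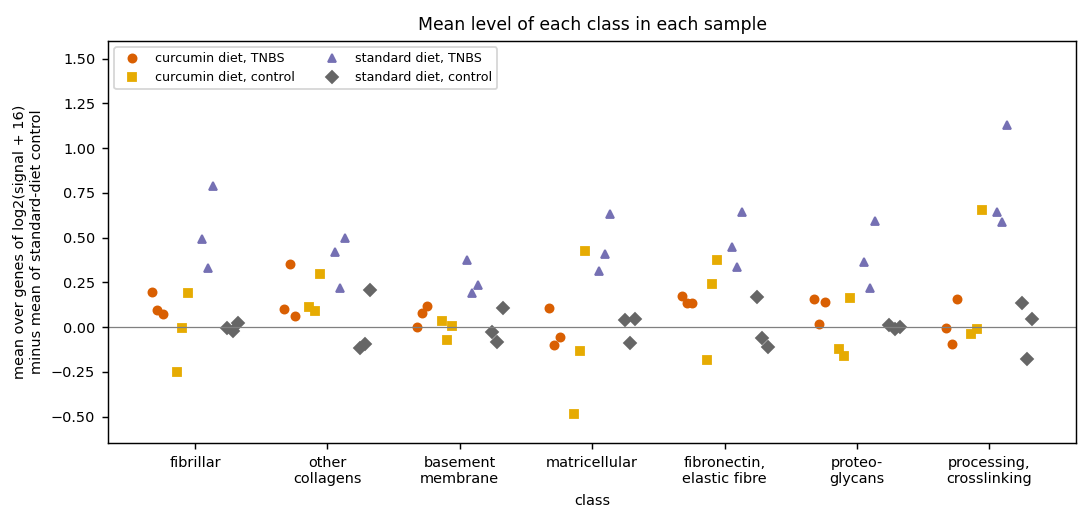
Each point is 1 sample's mean over the genes of a class of log2(signal + 16), relative to the standard-diet control mean; colours and shapes mark the groups. In all 7 classes the 3 standard-diet TNBS samples lie above the 3 standard-diet controls, and curcumin-diet control replicate 3 lies as high as some of them in 4 classes: matricellular, fibronectin and elastic fibre, processing and the other collagens.

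Averaged over all 44 genes and set against the standard-diet control mean, curcumin-diet TNBS samples stood at 0.10, 0.08 and 0.08. Curcumin-diet controls stood at -0.13, -0.01 and 0.28. Standard-diet TNBS samples stood at 0.43, 0.32 and 0.61, and standard-diet controls at 0.02, -0.08 and 0.06. Class means of the curcumin-diet TNBS samples were less even, such as 0.10, 0.36 and 0.06 for the microfibrillar, network and fibril-associated collagens. The interaction median over the 44 genes was -0.33, against a median near 0 for all genes, and 33 were negative. In limma 0 passed for the interaction in either fit (background 0% higher and 0.0232% lower with group means alone, 0% and 0.00775% in the array-set fit), with 3 higher and 15 lower at an unadjusted p (5.8% and 7.27%).

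Genes around this scaffold were read from lists of matrix metalloproteinases and their inhibitors, procollagen processing enzymes, TGF-beta signalling and matrix receptors, of which 47 were tested. With group means alone 0 passed in any comparison. In the array-set fit, 3 of 10 tested metalloproteinase and inhibitor genes rose with TNBS on the standard diet, and 0 fell (0.17% and 0.132% of all genes). Timp1, an inhibitor of metalloproteinases, rose by 2.47 ± 0.39 (adjusted p = 0.0376), Mmp8, the neutrophil collagenase, by 1.42 ± 0.21 (adjusted p = 0.0376) and Mmp9, a gelatinase, by 1.17 ± 0.21 (adjusted p = 0.0485). With 1 sample left out, the array-set fit called 0 to 4 of the 47 there and 0 to 7 between the TNBS groups. Most were called without curcumin-diet control replicate 3. Without that sample, 0.829% of all genes were higher and 0.705% lower on the standard diet, and 0.713% and 0.658% between the TNBS groups.

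Timp1 had signals of 194, 216 and 178 in curcumin-diet TNBS samples and 237, 281 and 629 in curcumin-diet controls. Timp1 reached 1017, 722 and 1221 in standard-diet TNBS samples, against 95.8, 287 and 159.9 in standard-diet controls. Timp1 was higher in each standard-diet TNBS sample than in the other 9. In the array-set fit Timp1 fell between the TNBS groups, with curcumin minus standard at -2.24 ± 0.39 (adjusted p = 0.0446). With group means alone this was -2.21 ± 0.38 and did not pass in limma (adjusted p = 0.0907). In the array-set fit 1 of 10 metalloproteinase and inhibitor genes thus fell, where 0.0775% of all genes did.

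For TGF-beta signalling, 0 of 13 passed on the standard diet in either fit. At an unadjusted p, 1 was higher and 1 lower (3.94% and 4.45% of all genes). Tgfb1 had signals of 294, 305 and 315 in curcumin-diet TNBS samples and 306, 379 and 374 in curcumin-diet controls. Tgfb1 reached 517, 487 and 618 in standard-diet TNBS samples, against 364, 349 and 361 in standard-diet controls. Tgfb1, the ligand most tied to collagen deposition, was highest in the 3 standard-diet TNBS samples. Curcumin minus standard under TNBS was -0.76 ± 0.14 (adjusted p = 0.0460 in the array-set fit, 0.104 without). In the array-set fit 1 of 13 thus fell, where 0.0775% of all genes did.

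Matrix receptors had 0 of 14 passing on the standard diet. Between the TNBS groups 1 of 14 fell in the array-set fit (0.0775% of all genes). This was Itga5, a subunit of the fibronectin receptor (-0.97 ± 0.17, adjusted p = 0.0446). Itga5 had signals of 183, 189 and 145 in curcumin-diet TNBS samples and 232, 328 and 345 in curcumin-diet controls. Itga5 reached 368, 395 and 352 in standard-diet TNBS samples, against 248, 222 and 192 in standard-diet controls. The curcumin-diet TNBS samples were the lowest 3 of the 12. Of 10 procollagen processing genes, 0 passed in any comparison. At an unadjusted p, 2 were higher on the standard diet (3.94% of all genes) and 2 lower between the TNBS groups (8.74%).

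The genes closest in profile to the fibrillar collagens were Fstl1, a follistatin-like secreted protein, with a Pearson r of 0.966, Itm2a with 0.938, Lyz1, a lysozyme, with 0.921, Ctsl, cathepsin L, with 0.912, and Mmp14, a membrane-bound collagenase, with 0.903. These r values are over the 12 samples, against the mean z-score of the 6 fibrillar collagens and out of 12867 other tested genes. The samples share arrays and groups, so the values are a description.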

How the data were processed

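Whole-colon RNA was measured in 12 numbered samples, each on 1 array of 2 types (24 arrays). The deposited values are linear signal intensities made by the authors with GCOS, per the submitters' processing notes. The version and genome build are not given in the sources used here. The 2% trimmed mean of each array is near 500, so the authors had scaled them. Precision is limited by how few arrays there are, and no read depth applies (median SE of a log2 difference 0.198 on 430A).

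Signals were transformed as log2(signal + 16), and probe sets above the 40th percentile of mean log2 were kept (13575 on 430A, 13506 on 430B). Each type was fitted alone over 12 arrays in limma 3.58.1 (R 4.3.3), with lmFit and eBayes with a trend. Tests are two-sided, with Benjamini-Hochberg adjustment over the type. A gene is read from its brightest tested probe set, 430A first, and every tested gene of the 44 was read from 430A. The array-set fit adds the array set on 430A and omits 2 outlying 430B arrays (curcumin-diet TNBS replicates 2 and 3). Members, lists and alternatives were chosen with earlier results of these data known. Values in every sample are given for 24 genes: those past adjusted p 0.05 in either fit, up to 3 per class with the smallest p for TNBS on the standard diet, the 2 smallest in each other comparison, and Col1a1, Col3a1, Col4a1, Fn1, Sparc, Tnc and Lox. Timp1, Tgfb1 and Itga5 were added after their values were seen. The fit was tested on simulated 430A data for TNBS against control on the standard diet (13575 probe sets). It recovered 66.7% of changes of 1 and 94.3% of changes of 2 on the log2 scale, and called 9 unchanged probe sets. The simulated noise was independent between probe sets, with no shared component such as the array sets. These values therefore do not give the recovery in the real arrays. Other settings tried were pseudocounts of 1 and 64, no filter and the 60th percentile, quantile normalization, median centring, array weights, eBayes without its trend, only the compared arrays, the mean over a gene's probe sets, and each sample left out. The platform annotation gives 20380 of 22626 probe sets on 430A and 14661 of 22511 on 430B 1 gene symbol, 691 and 245 several, and 1555 and 7605 none.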

Additional observations from a re-analysis of the deposited data

Results flagged for a closer look

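Sparcl1 and Loxl1 stood out because TNBS and control samples did not overlap on either diet and lay in opposite directions on the 2 diets. For Sparcl1 the TNBS effect on the curcumin diet minus that on the standard diet was 0.85 ± 0.18 (log2, SE, n = 3 per group), built from 0.26 on curcumin and -0.59 on the standard diet. The limma interaction did not pass (adjusted p = 0.221, or 0.0949 in the array-set fit). With array weights it did (adjusted p = 0.0312).

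For Loxl1 the same difference was -0.91 ± 0.22, built from -0.22 on curcumin and 0.70 on the standard diet. Its limma interaction had adjusted p = 0.239, 0.152 in the array-set fit and 0.0288 with array weights. The opposite, non-overlapping pattern was seen in 1.88% of all tested genes.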

How the results depend on the processing

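With all 12 arrays and group means alone, 0 of the 44 matrix genes and 0 of the 47 surrounding genes passed in any comparison. For TNBS against control on the standard diet, the matrix count was 3 in the array-set fit, 2 with only the compared arrays and 11 with array weights. Leaving out 1 sample gave 0 to 3, or 0 to 15 in the array-set fit (8 without standard-diet TNBS replicate 2). Between the TNBS groups it was 0 in the array-set fit, 2 with only the compared arrays, 21 with array weights, and 0 to 3 or 0 to 9 with 1 sample left out. For the interaction it was 10 with array weights. The highest leave-one-out counts came without curcumin-diet control replicate 3, which is in neither group of the comparisons concerned. The surrounding genes numbered 3 in the array-set fit for TNBS on the standard diet, 1 with a pseudocount of 64, 2 with quantile normalization and 4 with array weights, and 0 to 2 or 0 to 4 with 1 sample left out. Under TNBS, curcumin against standard diet, they numbered 3 in the array-set fit, 1 with only the compared arrays and 9 with array weights, and 0 to 2 or 0 to 7. For the interaction they numbered 5 with array weights and 0 to 1 in the array-set runs. With array weights, 0.658% of all genes were higher and 0.356% lower on the standard diet, and 6.78% and 9.16% between the TNBS groups. For the interaction these shares were 3.21% and 5.22%. Shares over all genes are not given here for only the compared arrays, the pseudocount of 64 or quantile normalization, so those counts have no background. The median log2 difference of the matrix genes on the standard diet was 0.33, and 0.58 with a filter at the 60th percentile, which left 39 of them. Leaving out 1 sample gave 0.217 to 0.472, or 0.217 to 0.488 in the array-set fit. Its value between the TNBS groups was -0.27, -0.407 with that filter, -0.399 with the mean over probe sets, and -0.409 to -0.252 or -0.407 to -0.243 with 1 sample left out. TNBS on curcumin gave -0.0890 to 0.178 or -0.0415 to 0.162, and curcumin against standard-diet controls -0.0949 to 0.140 or -0.128 to 0.0948, so both changed sign. The interaction median was -0.33, -0.466 with the mean over probe sets, and -0.456 to -0.220 or -0.383 to -0.232 with 1 sample left out. Dcn on the standard diet (0.08) ran from -0.00820 to 0.146, the lowest without standard-diet TNBS replicate 3. In the array-set fit it was -0.0387 without that sample, -0.00776 without control replicate 2 and -0.000287 without control replicate 1. The cause was not tested in these cases. The array-set fit with samples left out, and the counts of surrounding genes, were chosen after seeing the data. No paired analysis was possible because each sample has a number of its own, so no number is shared between groups. The number of arrays limits what these comparisons can show.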
